A study of Mus musculus with 33 samples.

Results

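The Ifi200 family genes Aim2, Ifi209, Ifi207, Ifi204, Mndal, Ifi203 and Ifi202b were followed by RNA sequencing in sorted mouse microglia that lacked the transcription factor IRF8 or BATF3. These 7 genes were taken by name from the 54146 gene identifiers counted, and all 7 were found. They lie in one cluster on chromosome 1 of GRCm38, between positions 173350879 and 173982744, a stretch of 0.632 Mb that also holds relatives such as Ifi206, Ifi208, Ifi213 and Ifi214. The Batf3 gene itself lies 17.12 Mb further along the same chromosome, so the deleted locus of one knockout and the family share a chromosome, whereas Irf8 lies on chromosome 8.

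The 33 libraries formed 10 groups, each of microglia obtained by fluorescence-activated sorting from mice labelled as female and as strain C57BL/6. At 3 months, 4 libraries of WT mice stood against 4 of germline IRF8KO mice. At 9 months there were 3 libraries from each of 4 genotypes, namely WT, IRF8KO, 5xFAD and the cross 5xFAD/IRF8KO. The 5xFAD line expresses mutant human amyloid precursor protein and presenilin transgenes from the neuronal Thy1 promoter and serves as an amyloid model. WT and Batf3-/- mice, called Batf3KO here, were compared at 3 months (3 libraries each). In a conditional design, mice with a floxed Irf8 allele alone (called flox, 3 libraries) and mice that also carried Cx3cr1-CreERT2 (called Cre, 4 libraries) all received tamoxifen for 5 days from postnatal day 12 and were taken at 3 months. Cx3cr1-CreERT2 is a tamoxifen-dependent recombinase made wherever Cx3cr1 is, in microglia and in other myeloid cells. The labels do not say which exons each allele lacks, from which mouse strain the targeted stem cells came, or whether replicates were separate mice, so p-values measure the spread between these libraries.

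The proteins of the family are known as PYHIN proteins. Most carry a pyrin domain, which joins other pyrin domains, and 1 or more HIN domains, which bind DNA. AIM2 binds double-stranded DNA in the cytosol and recruits the adaptor ASC (gene Pycard) and caspase-1 into an inflammasome, which releases interleukin-1 beta and interleukin-18. IFI204, often compared with human IFI16, has been linked to STING (gene Tmem173) and interferon induction, and IFI202B, which has HIN domains but no pyrin domain, antagonises AIM2. Many of the genes are interferon-stimulated, and interferon regulatory factors such as IRF8 bind GAAA repeats in promoters, or composite sites together with BATF or ETS proteins. The family is also known to differ in gene content and in Ifi202b expression between inbred mouse strains.

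Because the genes arose by duplication, they share sequence, which matters for reads of 55 bases that are counted only when they map to 1 place. Of all 55-base words in the transcripts of Ifi209, 31.0% also occurred in transcripts of other genes, nearly all of them in Ifi214. The share was 18% for Ifi204 and 17.6% for Mndal, with Ifi211 as the main partner of both, 10.5% for Ifi203, 6.21% for Ifi207, 0.286% for Aim2 and 0% for Ifi202b. Among annotated reference transcripts, almost any read tells Aim2 and Ifi202b apart from their relatives, while levels of Ifi209, Ifi204 and Mndal are less certain. Copies outside that annotation or in other strains were not searched. The longest identical stretch between coding sequences of members, given here to show how close the copies are, was 138 bases shared by Ifi204 (chr1:173759476-173759613, minus strand) and Mndal (chr1:173865406-173865543, minus strand).
Ifi204 and Mndal shared run: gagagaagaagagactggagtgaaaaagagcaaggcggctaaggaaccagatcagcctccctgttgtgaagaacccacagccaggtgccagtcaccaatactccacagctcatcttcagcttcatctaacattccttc
Ifi207 and Ifi204 shared a run of 108 bases, Mndal and Ifi203 1 of 76 bases, and Aim2 shared no run over 11 bases with any other member. Annotated exons of Mndal and Ifi203 also overlap on the minus strand, and the kit did not mark strand.

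Promoters from RefSeq (GRCm38.p6, 250 bases before to 50 after each start) were available for 6 of the 7 members. The word GAAATCGAAA, a form of the interferon response motif (GAAA, 2 bases of any kind, GAAA), stood just before the start, with its first base at position -41 in Ifi207, -36 in Mndal and -35 at the second of the Ifi203 starts. It also stood before 4 relatives of the cluster, Ifi206, Ifi208, Ifi213 and Ifi214. It was found on either strand in 16 of 32851 promoters (0.0487%), while 7 genes of this cluster held it. The word was taken from the match in the Ifi207 promoter, and the genes arose by duplication. Its share is thus a description, and a link with Irf8 was not tested. The windows below hold it in capitals with 15 bases on each side, for the members with the word and for the relatives Ifi206 and Ifi208.
Ifi207 (chr1:173741826-173741865, minus strand): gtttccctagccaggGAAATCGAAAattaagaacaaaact
Mndal (chr1:173880199-173880238, minus strand): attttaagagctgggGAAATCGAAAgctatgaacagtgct
Ifi203 (chr1:173942503-173942542, minus strand): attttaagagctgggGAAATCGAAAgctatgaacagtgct
Ifi206 (chr1:173491334-173491373, minus strand): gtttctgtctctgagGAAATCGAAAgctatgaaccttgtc
Ifi208 (chr1:173673592-173673631, plus strand): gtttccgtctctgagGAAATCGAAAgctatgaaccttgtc
The Mndal and Ifi203 windows were the same in all 40 bases. The broader motif, with any bases between the GAAA blocks, occurred in 3.44% of all promoters of this length.

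A second Mndal promoter held the composite motif of GAAA followed directly by TGANTCA on the opposite strand at positions -61 to -51 from the start, the type of site bound by an interferon regulatory factor with BATF or BATF3. That motif occurred in 0.125% of all promoters. In the 100 bases before this start, capitals mark the composite site together with an overlapping match of the GAAA repeat motif.
Mndal, second start (chr1:173879959-173880058, minus strand): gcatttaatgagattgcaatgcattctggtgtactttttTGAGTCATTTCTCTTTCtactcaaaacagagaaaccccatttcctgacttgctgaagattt
The 2 members that changed in Batf3KO, Aim2 and Ifi202b, held none of the 4 motifs searched on either strand (the GAAA repeat motif, GGAA with GAAA after 2 bases of any kind, TGANTCA, and GAAA followed by TGANTCA, which contains the motif before it). Their 250 bases before the start are shown for comparison.
Aim2 (chr1:173420354-173420603, plus strand): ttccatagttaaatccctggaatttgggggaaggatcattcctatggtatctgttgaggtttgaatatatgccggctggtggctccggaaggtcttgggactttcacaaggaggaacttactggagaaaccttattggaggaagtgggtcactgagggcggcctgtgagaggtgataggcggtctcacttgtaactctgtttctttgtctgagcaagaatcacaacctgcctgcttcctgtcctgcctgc
Ifi202b (chr1:173982845-173983094, minus strand): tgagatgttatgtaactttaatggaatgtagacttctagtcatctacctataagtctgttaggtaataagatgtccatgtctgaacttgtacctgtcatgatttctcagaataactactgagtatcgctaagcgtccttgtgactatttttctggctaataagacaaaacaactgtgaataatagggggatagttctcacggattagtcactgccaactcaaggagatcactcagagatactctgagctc
Of all promoters, 2.72% held the motif with GGAA and 7.81% held TGANTCA. A match describes the letters and is no bound site, and no match says only that these letters are not in this window.

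Libraries held 605376 to 18357762 counts in genes. Irf8 stood at 241 to 313 CPM in WT and 95.4 to 172 CPM in IRF8KO at 3 months, and at 510 to 704 CPM with and 14.9 to 126 CPM without Irf8 at 9 months. Batf3 had 26.7 to 32.3 CPM in WT and 0.482 to 0.575 CPM in Batf3KO, and 0 counts in all 6 libraries of IRF8KO and 5xFAD/IRF8KO at 9 months. The library labelled Cre replicate 1 had 1050 CPM of Irf8, within the flox range of 905 to 1140 CPM and against its label. Y-linked transcripts reached 10 CPM in 16 of the 20 libraries of the germline Irf8 groups and their controls, against the label female. None of the other 13 reached it. By group these were 3 of 4 WT and 4 of 4 IRF8KO libraries at 3 months. At 9 months they were 3 of 3 WT, 2 of 3 IRF8KO, 1 of 3 5xFAD and 3 of 3 5xFAD/IRF8KO libraries. Compared groups were thus uneven in these transcripts, and the part of sex was not tested. Microglial markers (8 genes) summed to 63800 to 76800 CPM in the Batf3KO experiment, 38900 to 52300 CPM in WT and 5xFAD at 9 months and 3690 to 7810 CPM in the 6 libraries without Irf8 at that age, where Sall1 was at 0 in 5xFAD/IRF8KO. Neutrophil markers (9 genes) summed to 0.147 to 2.25 CPM with Irf8 and 52700 to 149000 CPM without it at 9 months, and to 8830 to 60100 CPM in WT and 71900 to 185000 CPM in IRF8KO at 3 months. Monocyte markers (5 genes) moved the same way, from 0 to 3.16 CPM to 6050 to 17100 CPM at 9 months, and were 5780 to 16100 CPM in IRF8KO at 3 months. In the Batf3KO experiment neutrophil markers stayed between 2.38 and 6.00 CPM and monocyte markers between 2.41 and 6.55 CPM. In such bulk libraries, more cells of a type and more RNA per cell cannot be told apart.

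Levels of the family are given in CPM, the usual count relative to a library's total, here with TMM scaling over the 33 libraries. Aim2 made up 75.7% of the 7 genes' summed CPM in WT at 9 months and 82.2% in WT of the Batf3KO experiment, but 39.6% in WT of the IRF8KO experiment at 3 months, whose libraries held other cell types' markers. Per kilobase of exon, Aim2 in WT of the Batf3KO experiment stood at 15.2 ± 1.53 CPM, Ifi204 at 1.39 ± 0.180, Ifi209 at 1.31 ± 0.667 and Ifi207 at 0.540 ± 0.244 (SD, n = 3). Mndal, Ifi203 and Ifi202b had 1, 0 and 0 counts in the 3 libraries together. In WT of the IRF8KO experiment at 3 months, Aim2 stood at 8.80 ± 2.26 CPM per kilobase, Ifi204 at 4.22 ± 3.00, Ifi209 at 3.41 ± 4.82 and Ifi207 at 2.34 ± 2.39 (SD, n = 4). In IRF8KO of the same experiment, Ifi204 (9.21 ± 2.43 CPM per kilobase) and Ifi207 (9.14 ± 3.71) stood beside Aim2 (7.99 ± 1.02; SD, n = 4). In IRF8KO at 3 months Aim2 gave 28.0 ± 3.59 CPM of a family sum of 140.0 ± 23.7 CPM (SD, n = 4), and its share was 14.1% and 10.7% in IRF8KO and 5xFAD/IRF8KO at 9 months.

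**Figure D1:**
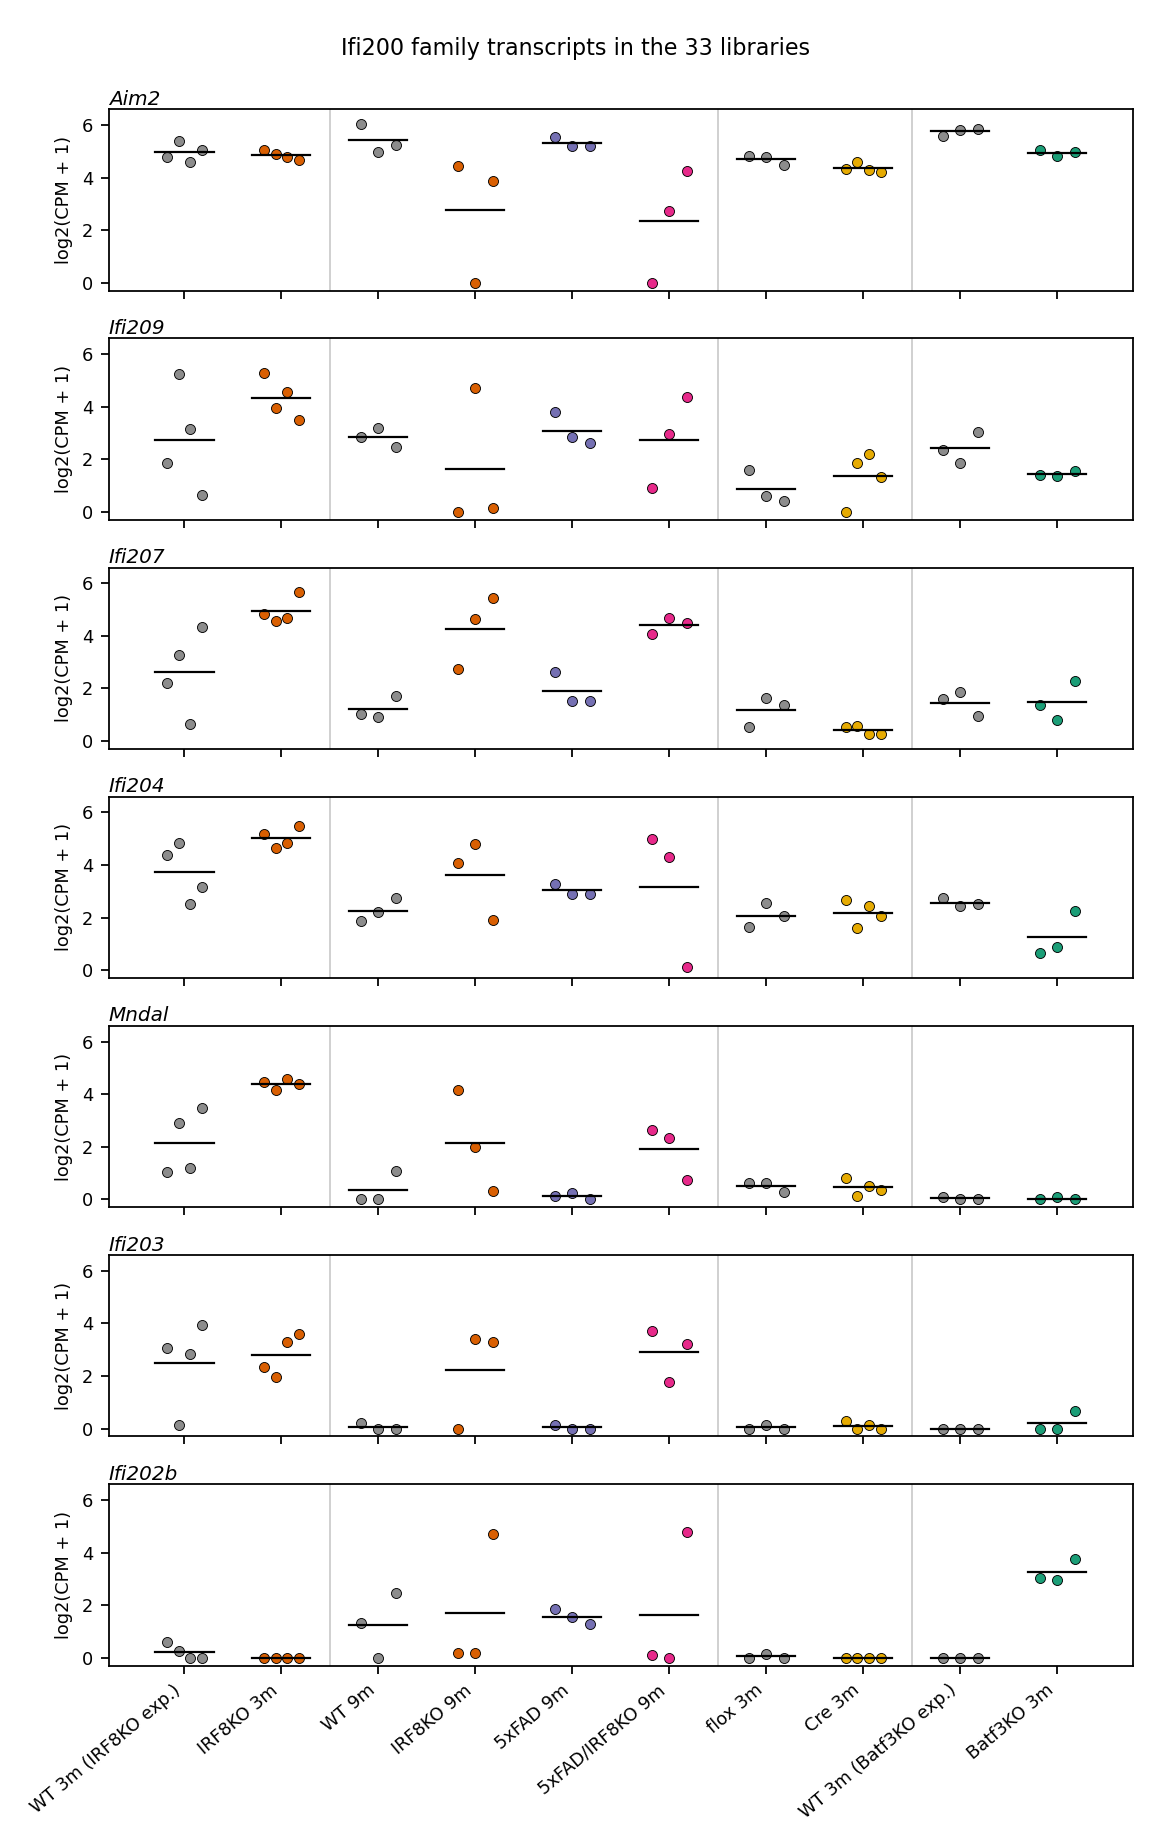
Level of each Ifi200 family gene in every library, as log2(CPM + 1) with TMM scaling over 33 libraries; points are libraries, bars the group means of the log2 values, and vertical lines separate the experiments. Aim2 is at 17.5 CPM or more in all libraries but 4 of the 6 without Irf8 at 9 months, and Ifi202b is at 6.75 CPM or more in the 3 Batf3KO libraries and in 1 library each of IRF8KO and 5xFAD/IRF8KO at 9 months.

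Ordered by group mean, Aim2 was highest in WT of the Batf3KO experiment (53.2 CPM) and lowest in 5xFAD/IRF8KO (7.91 CPM), and the libraries of each pair of neighbouring groups in that order overlapped. Ifi207 was highest in IRF8KO at 3 months, IRF8KO at 9 months and 5xFAD/IRF8KO (31.3, 24.2 and 20.4 CPM) and lowest in Cre (0.336 CPM). Mndal had the same leading group (20.3 CPM), and its order had 1 gap without overlap, between 5xFAD/IRF8KO (3.28 CPM) and flox (0.436 CPM). Ifi204 had its gap between 5xFAD (7.31 CPM) and WT of the Batf3KO experiment (4.95 CPM). Ifi202b was led by Batf3KO (8.79 CPM), with 5xFAD/IRF8KO and IRF8KO at 9 months next (8.76 and 8.55 CPM), each of these 2 resting on 1 library, and it had a gap between 5xFAD (1.40 to 2.60 CPM) and WT of the IRF8KO experiment at 3 months (0 to 0.52 CPM). The orders of Ifi209 and Ifi203 held no gap between neighbouring groups.

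Loss of Irf8 in the germline went with higher Ifi207 and Ifi203 at 9 months, and Aim2, Ifi209, Ifi204, Mndal and Ifi202b did not pass the test. Of the 7 members, all tested, 2 rose and 0 fell at an adjusted p under 0.05, beside 28.3% of all 14604 genes tested (19.6% rose and 8.68% fell). All adjusted p-values come from edgeR's quasi-likelihood test with Benjamini-Hochberg adjustment over all genes tested. The median log2 change of the 7 was 2.29, beside 0.25 over all genes. That middle value is Ifi202b, which was high in IRF8KO replicate 3 alone and ran from -3.71 to 3.39 with a library left out. Above it stood Ifi207, and also Ifi203 and Mndal, which had 1 count each over the WT libraries and could hardly fall. The median thus does not show a rise of the whole family.

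Ifi207, an interferon-inducible family member with a pyrin domain, stood at 1.03, 0.902 and 2.25 CPM in WT and at 5.65, 24.2 and 42.8 CPM in IRF8KO. These were only 7, 2 and 2 counts in WT, and 48, 177 and 368 counts in IRF8KO. Every knockout library lay above every WT library, as was so for 49.3% of all genes in one direction or the other. Its log2 fold change was 4.29 (SE 0.96, adjusted p = 0.0059), and it passed the threshold in each of 12 alternative settings. Without IRF8KO replicate 3 the log2 fold change was 3.50 (adjusted p = 0.0221, range over the alternatives 8.6e-06 to 0.0485). Ifi203 had 1, 0 and 0 counts in WT and 0, 70 and 75 counts in IRF8KO, so the groups overlapped. The ratio of summed, scaled counts was 59.0 (95% counting interval 10.4 to 2350) and the adjusted p 0.0416. It passed in 4 of 11 alternatives and was lost, among others, without any 1 of the 3 WT libraries, without IRF8KO replicate 2 or 3 and without a filter on low counts, with adjusted p-values up to 0.15.

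Mndal, whose name comes from human MNDA, the myeloid nuclear differentiation antigen, had 0, 0 and 1 counts in WT and 144, 22 and 2 counts in IRF8KO. Its ratio was 68.3 (95% counting interval 12.1 to 2720) with an adjusted p of 0.0829. Ifi204 was at 2.64, 3.61 and 5.63 CPM in WT but at 16.1, 27.0 and 2.79 CPM in IRF8KO (log2 fold change 2.05, SE 1.34, adjusted p = 0.28). In both genes IRF8KO replicate 3 was the low library, within or near the WT range. Aim2 was at 64.1, 30.2 and 37.2 CPM in WT and at 20.6, 0 and 13.5 CPM in IRF8KO, 3 libraries that all lay below WT. Its log2 fold change was -1.89 (SE 1.50, adjusted p = 0.386). IRF8KO replicate 2 held 0 Aim2 counts among 8170797 counts in genes, while the 2 other knockout libraries held 175 and 116. Ifi209 was at 6.16, 8.12 and 4.51 CPM in WT and at 0, 25.2 and 0.116 CPM in IRF8KO. Its log2 fold change of 0.48 (adjusted p = 0.868) became -6.46 without IRF8KO replicate 2 (adjusted p = 0.0197, range over the alternatives 0.0197 to 0.971). Ifi202b held 10, 0 and 4 counts in WT and 1, 1 and 218 in IRF8KO, so that replicate 3 alone was high (adjusted p = 0.521).

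The same comparison on the 5xFAD background gave the same pair of calls. In 5xFAD/IRF8KO against 5xFAD, 2 of the 7 members rose and 0 fell, beside 27.8% of all genes (18% rose and 9.72% fell). In Aim2, Ifi207, Mndal and Ifi203, 4 of the 7, the libraries of the groups did not overlap, beside 48.7% of all genes. Ifi207 was at 5.19, 1.89 and 1.87 CPM in 5xFAD and at 15.6, 24.4 and 21.4 CPM in 5xFAD/IRF8KO (log2 fold change 2.76, SE 0.85, adjusted p = 0.0303). It passed in 7 of 12 alternatives. The call was lost without 5xFAD replicate 2 or 3 or 5xFAD/IRF8KO replicate 2 (adjusted p 0.132, 0.127 and 0.0565), without a filter on low counts (0.0755) and in 1 further setting, in a range of 0.00161 to 0.132. Ifi203 held 1, 0 and 0 counts in 5xFAD and 150, 28 and 99 in 5xFAD/IRF8KO, a ratio of 150.0 (95% counting interval 26.7 to 5950, adjusted p = 0.0201). This call was lost without any 1 of the 5xFAD libraries (adjusted p 0.0815, 0.0973 and 0.0802). Mndal held 1, 1 and 0 counts in 5xFAD and 64, 47 and 8 in 5xFAD/IRF8KO, a ratio of 32.3 (95% counting interval 8.74 to 269) that missed the threshold (adjusted p = 0.0745).

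The unevenness between knockout libraries returned on this background. Aim2 was at 45.7, 36.2 and 36.0 CPM in 5xFAD and at 0, 5.68 and 18.1 CPM in 5xFAD/IRF8KO. Ifi204 was at 8.83, 6.54 and 6.55 CPM in 5xFAD and at 31.2, 18.9 and 0.0847 CPM without Irf8, and Ifi202b at 2.60, 1.89 and 1.40 CPM against 0.0808, 0 and 26.2 CPM. Replicate 3 was thus the library with high Ifi202b and low Ifi204 in both knockout groups at 9 months. Ifi209 ran from 5.15 to 12.9 CPM in 5xFAD and from 0.889 to 19.6 CPM in 5xFAD/IRF8KO. These 2 comparisons at 9 months have no libraries in common, but their 4 groups shared 1 estimate of the spread. Neutrophil and monocyte markers differed between the same groups as given above. So did markers of border macrophages (5 genes, 5.63 to 16.0 CPM with and 410 to 1110 CPM without Irf8), oligodendrocytes (4 genes, 29.4 to 88.9 and 5030 to 10400 CPM), red blood cells (5 genes, 0.147 to 36.1 and 14900 to 176000 CPM) and lymphocytes (6 genes, 0 to 0.346 and 38.1 to 345 CPM). The part of these cell types in the changes of Ifi207 and Ifi203 was not tested.

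The 5xFAD transgenes went with no called change in the family. None of the 7 members passed in 5xFAD against WT, beside 1.99% of all genes, and none passed in 5xFAD/IRF8KO against IRF8KO, beside 0.164%. DESeq2 also called no member in these 2 comparisons, and no member had an unadjusted p under 0.05, which 1637 and 1853 of the 14604 genes had. Ifi204, the 1 member of 7 whose libraries did not overlap in 5xFAD against WT (beside 38.3% of all genes), passed (adjusted p = 0.0442, range over the alternatives 0.0442 to 1.0) in 1 of 12 alternatives, the fit of these 2 groups alone.

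At 3 months, none of the 6 members tested passed in IRF8KO against WT, beside 7.39% of 13121 genes, and the median log2 change of the 6 was 0.93 beside -0.02 over all genes. Of the 6, Ifi207 and Mndal had an unadjusted p under 0.05, as did 3043 of all genes. Mndal was at 1.04, 6.50, 1.26 and 10.2 CPM in WT and at 21.1, 16.9, 23.2 and 20.0 CPM in IRF8KO (log2 fold change 2.02, SE 0.75, adjusted p = 0.119). Ifi207 was at 3.64, 8.61, 0.567 and 19.2 CPM in WT and at 27.8, 22.5, 24.8 and 50.0 CPM in IRF8KO (log2 fold change 1.90, SE 0.80, adjusted p = 0.172). In these 2 members every knockout library lay above every WT library, as did or did the reverse 19.5% of all genes. The WT libraries of this experiment already held neutrophil markers, unlike every other WT group. DESeq2 called Mndal (adjusted p = 0.0376) and the fit without a filter on low counts called Ifi207 (adjusted p = 0.0465), and over 13 alternatives the adjusted p-values ran from 0.0376 to 0.243 and from 0.0465 to 0.364.

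The other members at 3 months overlapped between the groups. Ifi204 was at 19.8, 27.8, 4.73 and 7.87 CPM in WT and at 35.6, 24.2, 27.8 and 43.6 CPM in IRF8KO (log2 fold change 1.10, SE 0.56, adjusted p = 0.268). Aim2 was at 26.5, 41.3, 23.3 and 32.2 CPM in WT and at 32.5, 28.9, 26.2 and 24.3 CPM in IRF8KO, a log2 fold change of -0.17 (SE 0.37, adjusted p over the alternatives 0.675 to 0.995). Ifi209 ran from 0.552 to 37.3 CPM in WT and from 10.3 to 37.6 CPM in IRF8KO. Ifi203 ran from 0.1 to 14.4 CPM and from 2.86 to 11.2 CPM. Ifi202b, with 3 counts over the 4 WT libraries and 0 over the 4 knockout libraries, was too low to be tested.

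In Batf3KO, Ifi202b was present in every library, against none of the WT libraries, and Aim2 fell. Of the 5 members tested, 1 rose and 1 fell, beside 1.41% of 13128 genes that rose and 2.42% that fell (3.83% in either direction). Mndal (1 count in each group) and Ifi203 (0 counts in WT and 9 in Batf3KO, all in replicate 3) were too low to be tested.

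Ifi202b, the member without a pyrin domain, held 0, 0 and 0 counts in WT and 99, 98 and 196 counts in Batf3KO. These made 7.12, 6.75 and 12.5 CPM, at least 119.8-fold higher than the level of 3 counts over the WT group (adjusted p = 2.11e-05). A count of 0 in the 3 WT libraries allows up to 3 counts among their summed reads, which covers counting error only. The call held without any 1 of the 6 libraries and in 4 of 5 other settings. In a model of all 33 libraries it was lost (adjusted p = 0.519, range over the alternatives 9.18e-39 to 0.519).

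Aim2 was at 47.1, 55.2 and 57.3 CPM in WT and at 32.0, 27.3 and 30.6 CPM in Batf3KO, with no overlap. Its log2 fold change was -0.74 (SE 0.13, adjusted p = 0.00827). Without WT replicate 2 the adjusted p was 0.051, and it was 1.0 in the model of all 33 libraries, in a range over the 11 alternatives of 3.48e-05 to 1.0. The Batf3KO level lay within the range of Aim2 in WT of the IRF8KO experiment at 3 months (23.3 to 41.3 CPM), which is a level across separate experiments and was not tested.

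Ifi209 and Ifi204 were lower in each Batf3KO library than in each WT library but missed the threshold. Ifi209 was at 4.14, 2.60 and 7.24 CPM in WT and at 1.65, 1.58 and 1.92 CPM in Batf3KO (log2 fold change -1.35, SE 0.41, adjusted p = 0.093). Ifi204 was at 5.67, 4.44 and 4.74 CPM in WT and at 0.575, 0.826 and 3.77 CPM in Batf3KO (log2 fold change -1.42, SE 0.53, adjusted p = 0.168). Without Batf3KO replicate 3, the high library, Ifi204 had a log2 fold change of -2.68 (adjusted p = 0.00463, range over the alternatives 0.00463 to 1.0). With Aim2 and Ifi202b, 4 of the 5 tested members had groups that did not overlap, beside 24% of all genes. Ifi207 was at 1.99, 2.60 and 0.949 CPM in WT and at 1.58, 0.758 and 3.83 CPM in Batf3KO, with overlap (log2 fold change 0.24, SE 0.56, adjusted p = 0.87). Neutrophil and monocyte markers in this experiment were near 0 in both groups, at the sums given above. Markers of 3 other cell types were lower in Batf3KO than in WT without overlap: oligodendrocytes (339 to 383 CPM in WT, 181 to 232 CPM in Batf3KO), border macrophages (9.12 to 15.0 and 3.95 to 7.78 CPM) and red blood cells (126 to 247 and 20 to 118 CPM). Microglial markers were also lower in Batf3KO without overlap, at 68500 to 76800 CPM in WT and 63800 to 68000 CPM in Batf3KO. What part these differences in markers had in the results was not tested.

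**Figure D2:**
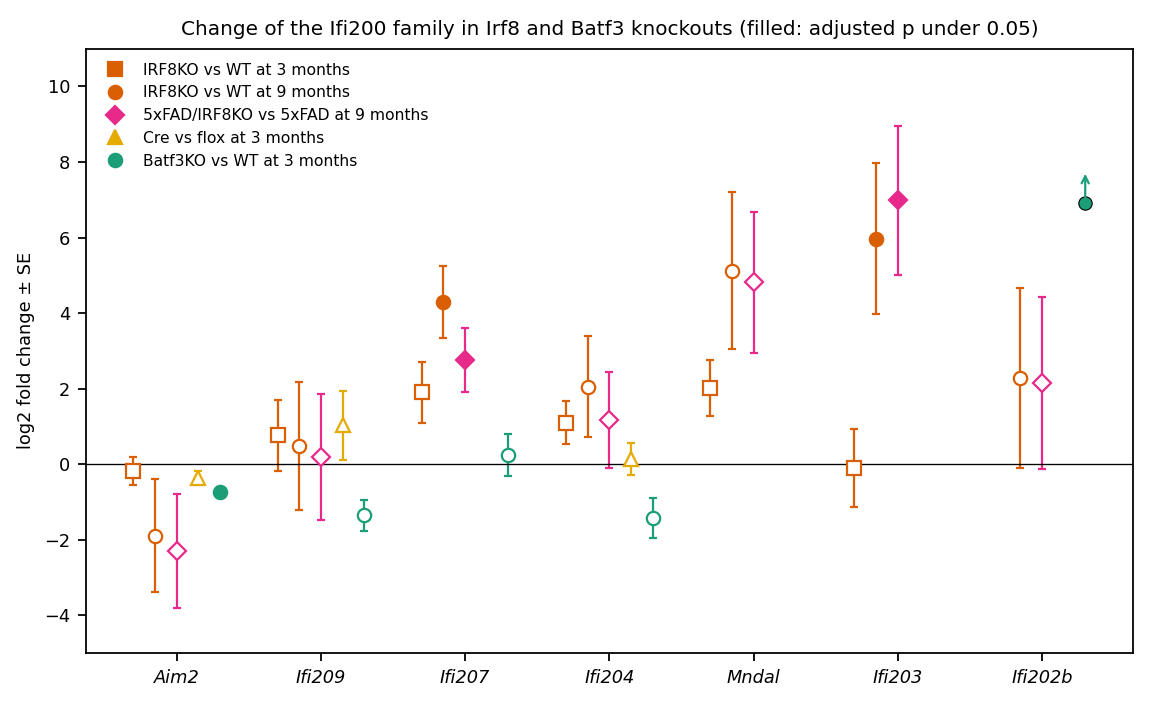
Log2 fold change with its SE of each tested Ifi200 family gene in 4 comparisons for loss of Irf8 and in Batf3KO against WT; filled symbols passed an adjusted p under 0.05, and the arrow marks a lower bound because Ifi202b had 0 counts in WT. Ifi207 and Ifi203 are filled in the 2 comparisons for loss of Irf8 at 9 months, and Aim2 and Ifi202b in Batf3KO.

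Set against each other in 1 model, the Batf3KO and IRF8KO effects differed in few members. Against IRF8KO at 3 months, 1 of 7 members tested differed, beside 3.22% of 16426 genes (1.17% higher and 2.05% lower in Batf3KO). This was Ifi202b, with 393 counts in Batf3KO, 0 in its WT, 0 in IRF8KO and 3 in the WT of that experiment (adjusted p = 0.0289, range over 19 alternatives 0.000685 to 0.137). It passed the filter of this model through the Batf3KO libraries. In the IRF8KO experiment it was too low to be tested, so no IRF8KO effect on it could be estimated. The call thus restates its presence in Batf3KO. The Ifi202b difference passed in 10 of the 19. The call was lost without WT replicate 2 of the IRF8KO experiment and without any 1 of the 6 libraries of the Batf3KO experiment, with adjusted p-values between 0.075 and 0.0918. Changing the scaling from TMM to DESeq2-type factors moved the median of all genes in this contrast by 0.17 on the log2 scale, and the Ifi202b call was kept.

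Against IRF8KO at 9 months, 2 of 6 members tested differed, both lower in Batf3KO relative to IRF8KO, beside 31.1% of 14605 genes in either direction, 19% in this one and 12% in the other. Ifi207, up 4.29 in IRF8KO and 0.24 in Batf3KO on the log2 scale, had a difference of -4.20 (SE 1.21, adjusted p = 0.021). Ifi204, up 2.05 and down with -1.42, had a difference of -3.59 (SE 1.23, adjusted p = 0.0446). The Ifi207 call passed in 11 of 17 alternatives and was lost without a filter on low counts (0.0509) and without WT replicate 1 or 2 at 9 months, WT replicate 2 of the Batf3KO experiment or Batf3KO replicate 1, with adjusted p-values up to 0.072. Ifi204 passed without IRF8KO replicate 3 or Batf3KO replicate 3 and was lost without any of the other 10 libraries, with adjusted p-values up to 0.119. Aim2, at -0.74 in Batf3KO and -1.89 in IRF8KO, missed the threshold for a difference (1.07, SE 1.32, adjusted p = 0.601). With IRF8KO at 3 months (-0.17) the Aim2 difference was -0.68 (SE 0.39, adjusted p = 0.404). Age also differed between the Batf3KO mice and the IRF8KO mice at 9 months, and its part cannot be told apart from that of genotype. Nor can that of cell content. At 9 months neutrophil markers summed to 0.147 to 2.25 CPM in WT and 52700 to 99300 CPM in IRF8KO. Microglial markers summed to 38900 to 48900 and 3690 to 7810 CPM. In the Batf3KO experiment neutrophil markers stayed at 2.38 to 6.0 CPM. Microglial markers there summed to 68500 to 76800 CPM in WT and 63800 to 68000 CPM in Batf3KO.

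The conditional design, with deletion of Irf8 induced after birth, gave no called change. Irf8 transcript was at 412, 337 and 485 CPM in Cre replicates 2 to 4, against 905 to 1140 CPM in flox. In Cre replicate 1 it was at 1050 CPM. None of the 3 members tested passed in Cre against flox with edgeR, and none of 15512 genes did (0%), although 1407 had an unadjusted p under 0.05. No member had such a p, and DESeq2 called 162 genes and no member. Aim2 was at 27.2, 26.3 and 21.3 CPM in flox and at 18.9, 23.2, 18.3 and 17.5 CPM in Cre (log2 fold change -0.36, SE 0.19, adjusted p = 0.644). Ifi207, which like Ifi203 was called in both germline comparisons at 9 months, stood at 0.445, 2.10 and 1.57 CPM in flox and at 0.445, 0.494, 0.214 and 0.190 CPM in Cre, and was too low to be tested. Ifi204 ran from 2.12 to 4.84 CPM in flox and from 2.07 to 5.34 CPM in Cre, and Mndal had 12 and 15 counts over the groups. Ifi203 had 1 and 3 counts, and Ifi202b 1 and 0.

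Leaving out the library labelled Cre replicate 1, whose Irf8 lay within the flox range, brought 952 genes past the threshold and none of the 3 members. Against the Batf3KO effect, none of 5 members passed the test of a difference from the Cre effect, beside 1.88% of 16939 genes. At an unadjusted p under 0.05 stood 4 of the 5 members and 2720 genes, and DESeq2 called 1 member, Ifi202b. Without Cre replicate 1, Ifi209 and Ifi202b differed (adjusted p = 0.0259 and 0.0282), within a range over 18 alternatives from 0.0259 to 1.0 for Ifi209 and from 0.000225 to 1.0 for Ifi202b. With 1 count in flox and 0 in Cre, Ifi202b allowed no estimate of a Cre effect, so its difference restates its presence in Batf3KO. Neutrophil markers were 0.197 to 106 CPM in the conditional experiment.

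Across all 33 libraries, Ifi202b stood at 5 CPM or more in 5, the 3 of Batf3KO and replicate 3 of IRF8KO and of 5xFAD/IRF8KO at 9 months. In these 5 libraries Ifi204 was between 0.0847 and 3.77 CPM and Mndal between 0 and 0.678 CPM. The 4 other libraries of the same knockout groups at 9 months had 16.1 to 31.2 CPM of Ifi204, 3.01 to 17.0 CPM of Mndal and 0 to 0.137 CPM of Ifi202b. High Ifi202b and high Ifi204 were thus not seen in the same library. Low Ifi204 and Mndal also occurred without Ifi202b. Over the 28 other libraries Ifi204 ran from 2.07 to 43.6 CPM and Mndal from 0 to 23.2 CPM. WT of the Batf3KO experiment had 0 to 0.0766 CPM of Mndal. For Mndal the contrast therefore rests on replicate 3 of IRF8KO and of 5xFAD/IRF8KO. Pearson's r between log2(CPM + 1) of Ifi202b and Ifi204 was -0.52 over the 33 libraries, which share groups and cell content. This split was noticed in the data and has no test.

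**Figure D3:**
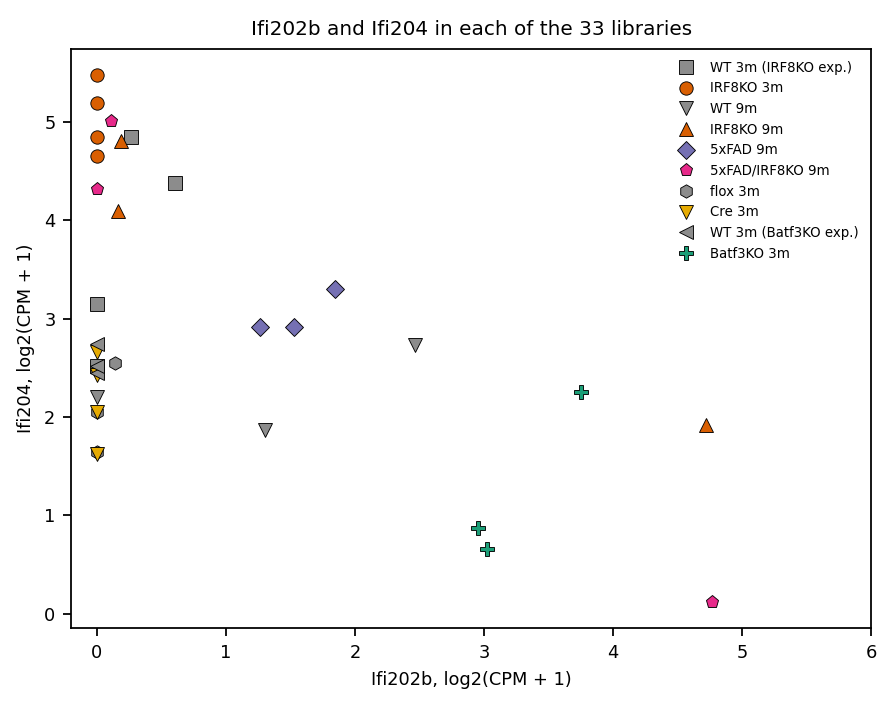
Level of Ifi204 against Ifi202b in each of 33 libraries, both as log2(CPM + 1); symbols mark the groups. The 5 libraries at 5 CPM or more of Ifi202b hold at most 3.77 CPM of Ifi204, and the 28 others hold 2.07 to 43.6 CPM.

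Among pairs of members, r over the 33 libraries was highest for Ifi204 and Mndal (0.78), Ifi203 and Ifi207 (0.78) and Ifi207 and Mndal (0.71). Ifi204 and Mndal are also the pair with the 138-base shared run. Aim2 had an r of -0.51 with Ifi203 and -0.38 with Ifi207. Outside the family and among 13937 genes, the genes most like Ifi207 were Cybb, which encodes a subunit of the phagocyte NADPH oxidase, Spn and Trem1 (r = 0.91, 0.90 and 0.90). Those most like Mndal were Gm5483, Ccdc180 and Myb (0.92, 0.91 and 0.89), and those most like Ifi203 were Pcbd1, Sdc2 and Ube2ql1 (0.92, 0.90 and 0.90). The closest to Aim2 were Rars2, Gatc and Slc39a3 (0.88, 0.87 and 0.87). Ifi204 was nearest to Ccdc180, Rrm2 and Chil5 (0.82, 0.82 and 0.81), Ifi209 to Vta1, Slc25a20 and Pnrc2 (0.74, 0.73 and 0.72) and Ifi202b to Zfp748, Fv1 and Pja1 (0.66, 0.64 and 0.63). These correlations join groups of different cell content and carry no p.

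Aim2 and Ifi202b were not alone along chromosome 1 in Batf3KO. Of 89 tested genes that start between 170 and 180 Mb, 22 passed (24.7%), beside 3.66% of 12327 genes on all other chromosomes. The next windows of 10 Mb, which end with the one that holds Batf3, had 9.80% and 5.88%. All 22 started between positions 170141938 and 173962568. Of 68 genes tested between 170 and 174 Mb they made 32.4%, and none of 21 passed between 174 and 180 Mb. This split was chosen after the windows were seen. Of the 22, 8 rose and 14 fell. In IRF8KO at 9 months the same 10 Mb window held 28.2%, beside 28.4% on all other chromosomes, and in IRF8KO at 3 months 7.69% beside 7.37%.

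**Figure D4:**
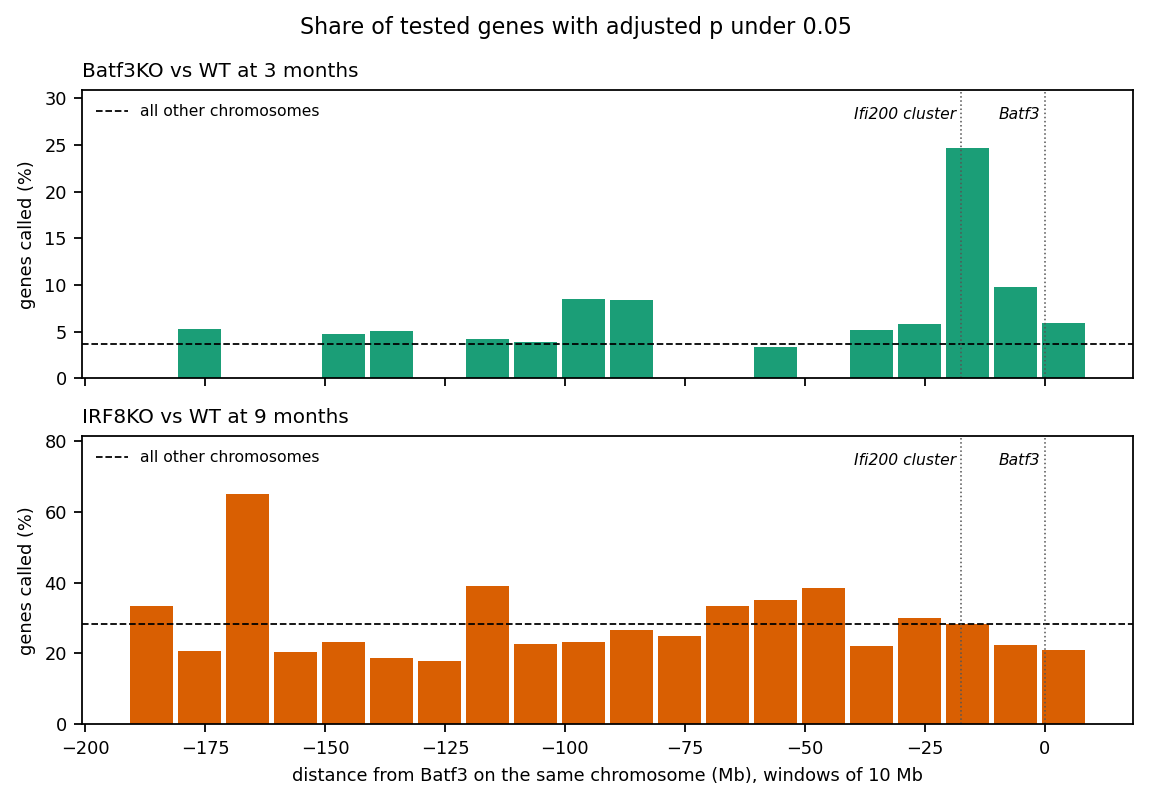
Share of tested genes that passed an adjusted p under 0.05 in windows of 10 Mb along the chromosome that holds Batf3 and the Ifi200 cluster, against distance from Batf3; the dashed line is the share on all other chromosomes. In Batf3KO the window with the cluster stands at 24.7% against 3.66%, and in IRF8KO at 9 months at 28.2% against 28.4%.

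Within 1 Mb of the members, 4 of 11 tested genes that are no members passed in Batf3KO, beside 3.83% of all genes. Slamf8, which encodes a receptor of the SLAM family on macrophages, was at 70.1, 68.1 and 66.5 CPM in WT and at 237, 247 and 258 CPM in Batf3KO (log2 fold change 1.95, SE 0.08, adjusted p = 1.58e-08). Kcnj10, a potassium channel gene, rose by 2.58 (SE 0.24, adjusted p = 3.67e-05) and Tagln2, an actin-binding protein gene, by 0.93 (SE 0.09, adjusted p = 6.8e-05) on the log2 scale. Slamf9 fell by 0.38 (SE 0.10, adjusted p = 0.0444). Slamf8 went the other way in the germline Irf8 groups: it was at 0 in all 4 IRF8KO libraries at 3 months and in 5 of 6 libraries without Irf8 at 9 months, against 75.3 to 119 CPM in WT and 5xFAD at that age. Kcnj10, Tagln2 and Slamf9 moved in IRF8KO at 9 months in the same direction as in Batf3KO. Tagln2 was at 21.9 to 33.8 CPM in WT and 184 to 225 CPM in IRF8KO. Kcnj10 was at 0.902 to 2.25 and 16.5 to 120 CPM, and Slamf9 at 82.1 to 90.2 and 25.6 to 40.4 CPM. At 3 months Kcnj10 was at 21.3 to 83.7 CPM in WT and 8.19 to 38.0 CPM in IRF8KO. At 9 months, 7 of 16 neighbours passed in IRF8KO and 8 of 16 in 5xFAD/IRF8KO against 5xFAD, beside 28.3% and 27.8% of all genes. The strain of the stem cells in which Batf3 was deleted is not in the labels. Whether sequence of another strain lies along this stretch, and its part in the Ifi202b, Aim2 and neighbouring changes, was not tested.

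The relatives of the cluster outside the 7, Ifi205, Ifi206, Ifi208, Ifi211, Ifi213 and Ifi214, were low and gave no call in any comparison, with at most 2 of 6 tested in a comparison of 2 groups. Ifi208 held 0 counts in the 4 WT libraries at 3 months and 13, 8, 97 and 69 in IRF8KO, too few to be tested in that fit. Ifi206 held 0, 27, 0 and 0 counts in WT and 32, 60, 111 and 45 in IRF8KO at that age. At 9 months the direction was not uniform. Ifi206 held 11 counts over WT and 59 over IRF8KO, all in replicate 2, but 32 over 5xFAD and 0 over 5xFAD/IRF8KO. Ifi208 held 4 over WT and 0 over IRF8KO, and 2 over 5xFAD and 180 over 5xFAD/IRF8KO, all in replicate 2.

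Genes that act with the family were taken from 3 lists. Of 17 DNA sensing and interferon induction genes tested, 3 rose and 6 fell in IRF8KO at 9 months, 3 rose and 5 fell in 5xFAD/IRF8KO against 5xFAD, and 2 rose and 1 fell in IRF8KO at 3 months. Over all genes, 28.3%, 27.8% and 7.39% were called in these 3 comparisons in either direction. Tmem173, which encodes STING, the adaptor downstream of cytosolic DNA sensing, fell by 3.64 (SE 0.31, adjusted p = 8.5e-06) on the log2 scale in IRF8KO at 9 months. It dropped by 3.94 (SE 0.31, adjusted p = 5.34e-06) without Irf8 on the 5xFAD background. Ikbke, a kinase that activates IRF3, rose from 0.102 ± 0.177 to 20.9 ± 15.9 CPM in IRF8KO at 9 months (SD, n = 3; scaled within that model, adjusted p = 0.00471). In Batf3KO, where 3.83% of all genes were called, 1 of 16 rose and 0 fell, and this was Tmem173, by 0.28 (SE 0.07, adjusted p = 0.0336).

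Among inflammasome partners of Aim2, 1 of 10 tested rose and 5 fell in IRF8KO at 9 months, 1 rose and 2 fell in 5xFAD/IRF8KO against 5xFAD, and 1 of 11 rose and 2 fell at 3 months. The 6 of 10, 3 of 10 and 3 of 11 called stand beside the same 28.3%, 27.8% and 7.39% of all genes. Pycard, the adaptor that Aim2 recruits, fell by 2.32 (SE 0.42, adjusted p = 0.00173) in 5xFAD/IRF8KO against 5xFAD and by 2.03 (SE 0.41, adjusted p = 0.0126) in IRF8KO at 3 months. Il1b, which encodes the interleukin-1 beta precursor, rose by 4.97 (SE 0.68, adjusted p = 0.000234) in IRF8KO at 9 months. In Batf3KO 0 of 10 rose and 1 fell, Nlrp1b, another inflammasome sensor, by 0.92 (SE 0.18, adjusted p = 0.0121).

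Of 33 interferon-stimulated genes tested, 4 rose and 3 fell in IRF8KO at 9 months, 5 rose and 6 fell in 5xFAD/IRF8KO against 5xFAD, and 4 rose and 1 fell at 3 months. These 7, 11 and 5 of 33 stand beside 28.3%, 27.8% and 7.39% of all genes. Rsad2, which encodes the antiviral protein viperin, rose by 8.48 (SE 1.21, adjusted p = 0.000303) in IRF8KO at 9 months, whereas Mx2, an antiviral GTPase gene, held 75 counts in WT and 0 in IRF8KO. In Batf3KO none of 31 passed, with a median log2 change of 0.25 beside 0.00 over all genes. None of the 3 lists had a call in Cre against flox, and in 5xFAD against WT 1 gene was called, Il1b, which rose by 2.99 (SE 0.66, adjusted p = 0.0407).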

How the data were processed

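RNA of 33 libraries of sorted mouse microglia was sequenced after SMART-Seq v4 amplification, without molecular identifiers, in pairs of 55-base reads, per the labels. The authors deposited whole-number read counts per gene without normalization. Counts without regard to strand were taken, because 49.5% to 50.1% of stranded counts fell on the first strand. The submitters' processing notes name mm10, STAR 2.5.2b, Picard 2.17.11, Subread and featureCounts without their roles. Counts in genes made up 47.3% to 78.6% of reads and the rest stayed out of library sizes. Multimapping reads took 4.00% to 35.4%. At 9 months they took 4.86% to 6.85% in WT and 5xFAD, and 12.2% to 35.4% in IRF8KO and 5xFAD/IRF8KO. The part of this imbalance in the counts of close copies was not tested. Symbols and coordinates come from GENCODE M21 (GRCm38), which held 54079 of 54146 identifiers.

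Genes were filtered with filterByExpr, scaled with TMM and tested by quasi-likelihood F tests (edgeR 4.0.16, R 4.3.3), with Benjamini-Hochberg adjustment over all genes and calls under 0.05. The 12 libraries at 9 months were fitted together, other comparisons on their own groups, and differences of effects in models of 4 groups. SEs derive from the F statistic. The fit was tested on simulated data. Alternatives were DESeq2 1.42.0, other size factors, no filter, replicate number as a term, all 33 libraries in one model, the 2 groups alone, and leaving out each library. The text names all 7 members, genes of the lists with the largest called changes at 5 CPM or more (up to 2 in each direction, of which examples are printed), the 3 genes most correlated with each member, and called neighbours within 1 Mb. Members and lists were chosen with earlier results of these data known. Folds against 0 use 3 counts over the group. No library pair was identical. Proteins were not used here.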

Additional observations from a re-analysis of the deposited data

Results flagged for a closer look

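Ifi202b passed a test of the difference between the Batf3KO effect and the IRF8KO effect at 3 months (edgeR adjusted p = 0.0289). It appeared in all 3 Batf3KO libraries and had 0 counts in the 4 IRF8KO libraries and 3 in their WT. In that IRF8KO experiment it was too low to be tested. The difference thus restates its presence in Batf3KO and estimates no IRF8KO effect. The call passed in 10 of 19 alternatives and was lost without any 1 of 7 libraries. At 9 months, IRF8KO replicate 3 held 25.4 CPM of Ifi202b, and the test against that age missed the threshold (adjusted p = 0.134). Against the IRF8KO effect at 9 months, the tests of the difference passed for Ifi207 (adjusted p = 0.021) and Ifi204 (adjusted p = 0.0446), 2 of 6 members beside 31.1% of all genes. Ifi207 had passed in IRF8KO at that age, and Ifi204 had passed neither there (adjusted p = 0.28) nor in Batf3KO (0.168). The Ifi204 difference was lost without any 1 of 10 of the 12 libraries. In the groups of 4 libraries, none of 19 sets of member levels had a library far from the rest by Dixon's criterion.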

How the results depend on the processing

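Over 474 values of single members under an alternative, 395 kept their direction and side of the threshold, 46 lost a call, 18 gained one and 15 changed sign. The number of members called moved as follows. Without a filter on low counts it was 1 in IRF8KO at 3 months, 1 in IRF8KO at 9 months, 1 in 5xFAD/IRF8KO against 5xFAD, 4 in Batf3KO, 0 in the Batf3KO difference from IRF8KO at 9 months and 2 in that from Cre. DESeq2 called 1 in IRF8KO at 3 months and 1 in the Batf3KO difference from Cre. One model of all 33 libraries gave 0 in Batf3KO and 0 and 1 in its differences from IRF8KO at 3 and 9 months. The fit of the 2 groups alone gave 1 in IRF8KO at 9 months and 1 in 5xFAD against WT. Leaving out 1 library gave 1 to 2 in IRF8KO at 9 months, 0 to 2 in 5xFAD/IRF8KO against 5xFAD, 1 to 3 in Batf3KO, and 0 to 1, 0 to 3 and 0 to 2 in the Batf3KO differences from IRF8KO at 3 months, IRF8KO at 9 months and Cre. The causes were not tested.

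Replicate numbers gave no clear pairing over the 4 experiments: correlations of same-numbered libraries ran from -0.153 to 0.167. By experiment, 6 of 8, 5 of 12, 0 of 6 and 3 of 7 libraries correlated best with their own number. The 6 of 8 were in the IRF8KO experiment at 3 months, where the highest r was 0.167 for the same number and 0.151 for another. Pairing in that experiment cannot be settled from these values. The replicate block gave 1 member in IRF8KO at 9 months (Ifi203 lost, adjusted p = 0.0815), 1 in 5xFAD/IRF8KO against 5xFAD (Ifi207 lost, 0.0677), and 0 in the Batf3KO differences from IRF8KO at 3 and 9 months. With the block, log2 changes with another sign were 0.57 for Ifi203 in IRF8KO at 3 months, -0.76 and -0.47 for Ifi209 and Ifi202b in IRF8KO at 9 months, and 1.82 for Ifi209 in the Batf3KO difference from IRF8KO at 9 months.

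Leaving out 1 library turned the sign of log2 changes that had not passed: from -0.30 to 0.009 for Aim2 and -0.51 to 0.59 for Ifi203 in IRF8KO at 3 months, -6.46 to 0.96 for Ifi209 and -3.71 to 3.39 for Ifi202b in IRF8KO at 9 months, -0.54 to 0.63 for Ifi207 in Batf3KO, -0.10 to 0.51 for Ifi204 in Cre, and -2.46 to 5.02 for Ifi209 in the Batf3KO difference from IRF8KO at 9 months.

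Over all genes in Batf3KO, 503 were called, against 998 without a filter, 809 by DESeq2, 216 with the block, 10 in the model of all libraries and 219 to 596 with a library left out. In IRF8KO at 3 months 970 became 1655, 2581 and 3300 (no filter, DESeq2, all libraries) and 305 to 1128, and in IRF8KO at 9 months 4136 became 6836 (all libraries) and 2266 to 4126. In 5xFAD/IRF8KO against 5xFAD 4054 became 6783 (all libraries) and 2325 to 4055. In 5xFAD against WT, 290 ran from 105 (block) to 4546 (2 groups alone) and 2 to 102. In Cre, 0 became 618 (no filter), 162 (DESeq2) and up to 952. Depth limits Ifi203, Ifi202b and Mndal most, the members with the fewest counts (873 over all libraries for Ifi203).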

Other observations

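Slamf8, which starts within 1 Mb of the family, also differed within the conditional experiment. It stood at 3.12, 1.26 and 0.897 CPM in flox and at 0.445 CPM in Cre replicate 1, against 26.1, 28.1 and 31.1 CPM in Cre replicates 2 to 4. Batf3 had the same split, with 1.79 to 4.21 CPM in flox, 1.22 CPM in Cre replicate 1 and 32.2, 62.1 and 44.3 CPM in replicates 2 to 4. Aim2 did not have it, at 18.9 CPM in Cre replicate 1 and 17.5 to 23.2 CPM in the others.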
